A study of Mus musculus with 4 samples.

Results

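Brainstem and cerebellum of a transgenic mouse model were set against the same tissue of wild-type mice, by gene expression arrays. The comparison takes 2 of the 4 samples of the series, chosen by their labels alone: 1 array of transgenic and 1 of wild-type brainstem/cerebellum, both from the age of 24 weeks and both on a strain background that mixes C57BL/6, 129 and C3H. The submitters call the transgenic animals MSA Tg mice. The labels name neither the transgene nor the promoter that drives it, and leave unsaid how many animals went into a sample. With 1 array a side, the differences below cannot be set against a spread between replicates, and they carry no p-value. The other pair of arrays holds spinal cord of the same 2 genotypes and is used here for values side by side and in the choice of 1 probe per gene.

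Multiple system atrophy (MSA) is an adult neurodegenerative disease in which misfolded protein collects in oligodendrocytes, the cells that make the myelin of the central nervous system. The brainstem holds serotonin, noradrenaline and motor neurons together with long myelinated tracts, while the cerebellum is dominated by granule and Purkinje neurons. The sections below go through neurons, glia, vessels, matrix, metabolism, stress and growth, with 73 gene lists that hold 938 genes.

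A level below is the log2 signal of a gene's probe relative to the 75th percentile of its array. A difference is the transgenic level minus the wild-type level, on the log2 scale, so that 1 is 2-fold. Over all, 59305 spots per array were read, of which 61.69% were well above background on the transgenic array and 59.17% on the wild-type one, and none was saturated. Both arrays lie on 1 slide. The 7 spike-in control probes, which carry no tissue RNA, differed by a median of -0.07, with a range from -0.12 to 0.01. Some probes are spotted repeatedly on an array, and 2 such spots differed with an SD of 0.0967 for probes at a level above 2 and 0.15 at levels from -3 to 0. That error covers neither animals nor hybridisations. The number of arrays limits the precision of every value.

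Of 16948 genes above background on both arrays, 448 were at least 2-fold higher on the transgenic array, which is 2.64% of those measured, and 53 were at least 2-fold lower, which is 0.313%. The median difference of all measured genes was -0.07, and the central 95% lay between -0.58 and 1.03. A further 203 genes were above background on the transgenic array alone with a difference of at least 2-fold as a bound, and 61 in the opposite case. Of the 501 genes past 2-fold with both values measured, 89.4% were higher. With arrays scaled on their medians, which moves the median of all genes from -0.07 to -0.24, that share was 75.9%. With scaling on the spike-in control probes it was 92.6%. The share of higher genes depended on signal. It was 6.26% at mean levels from -4 to -2 and 0.496% at mean levels above 2, where the median difference of all genes was -0.13. The median was 0.07 in the dimmer of these ranges. A list of bright genes with a median near -0.13 therefore sits at the level of other bright genes, and the medians below are to be read with this in mind. The background shares of 2.64% higher and 0.313% lower stand beside every count of list members that follows. Chromosome 17, which carries the H2 genes of antigen presentation, had the highest share of higher genes, 4.17%, and chromosome 4 the lowest among the autosomes, 1.69%.

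**Figure D1:**
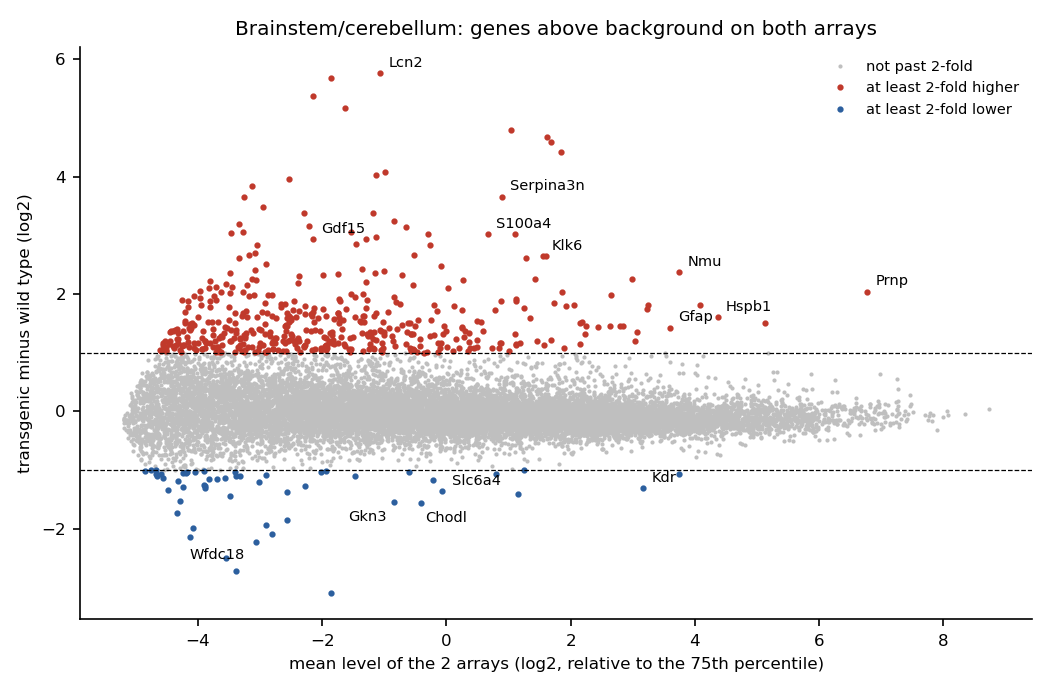
Difference (transgenic minus wild type, log2, vertical axis) against the mean level of both brainstem/cerebellum arrays (log2 relative to the 75th percentile, horizontal axis) for each of 16948 genes, 1 array per genotype. Red points are the 448 genes at least 2-fold higher and blue points the 53 at least 2-fold lower; dashed lines mark 2-fold, and most coloured points lie at low mean levels.

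The tissue labels were set against markers first. The Purkinje cell gene Pcp2 stood at 6.28 on the transgenic array and 6.19 on the wild-type one, and Gabra6, a receptor subunit of cerebellar granule cells, at 4.03 and 3.94. Of 18 Hox genes, the position genes of hindbrain and spinal cord, 15 were measured on both arrays, with a median difference of -0.11 and a range from -0.63 to 0.80. The lowest differences were -0.63 for Hoxb4 and -0.42 for Hoxb5, and the highest 0.80 for Hoxb7 and 0.59 for Hoxa7. Of 8 measured forebrain genes none was past 2-fold, and their median was -0.08. The X-inactivation transcript Xist differed by -0.18. Of the Y-linked genes Kdm5d was dim, at -5.04 and -4.04, while Ddx3y, Eif2s3y and Uty were not well above background on either array. Of 9 genes known to vary between inbred strains none was past 2-fold at the probe that stands for it. Their median was -0.24. Other probes of Wdfy1 ranged from 0.01 to 1.75 and those of Entpd4 from -0.03 to 0.84. The other probes of Glo1, Gabra2 and Kcnj9 were below 0.

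Among the neuronal lists, those of cholinergic and motor neurons and of serotonin neurons had the lowest medians. Serotonin neurons, the raphe cells that supply the brain with serotonin, had 11 measured genes, none of them above 0. Slc6a4, the serotonin transporter, stood at -0.75 on the transgenic array and 0.61 on the wild-type one, a difference of -1.36 or 2.57-fold lower (probe at chromosome 11, 76845560 to 76845619, build mm9). Tph2, the enzyme that starts serotonin synthesis in neurons, was at -1.11 and -0.08, a difference of -1.03. Gata3, a transcription factor of these neurons, was at -0.80 and 0.37, a difference of -1.17. These 3 genes were the members past 2-fold lower, against a background share of 0.313%. Gata2, a related factor, was at -1.53 and -0.97, and Htr1b, a serotonin receptor, at -1.93 and -1.51. Fev, the factor that defines serotonin neurons, differed by -0.34, Lmx1b by -0.23, the vesicle transporter Slc18a2 by -0.40 and Ddc, which catalyses the second step of serotonin and dopamine synthesis, by -0.15. The list median was -0.40, against -0.07 for all genes. En1, a factor of midbrain and rostral hindbrain neurons, went the other way: it was above background on the transgenic array alone, at -4.03, with a bound of at least 2.30-fold higher.

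Among 9 measured genes of cholinergic and motor neurons 2 were past 2-fold lower and none higher, and the median was -0.65. With normexp background correction at an added offset of 50, then quantile normalization, that median was -0.29. That offset draws the differences of dim probes towards 0. Chodl, a gene of motor neurons, stood at -1.19 on the transgenic array and 0.38 on the wild-type one, or 2.96-fold lower. Mmp9, listed as a marker of fast motor neurons, was dim at -5.18 and -4.17. Slc5a7, the choline transporter, was at 0.64 and 1.38, and its other probe differed by -0.72 as well. Slc18a3, which loads acetylcholine into vesicles, was at 0.89 and 1.54, and acetylcholinesterase, Ache, differed by -0.46. The list had 2 members above 0, Hspb3, a small heat shock protein, at -2.45 and -2.82, and Chat, the enzyme that makes acetylcholine, at -1.42 and -1.44, with another probe of Chat at 0.80.

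Among genes of catecholamine neurons, the values of Th and Dbh depended on the probe read. Th, the first enzyme of dopamine and noradrenaline synthesis, stood at 1.73 on both arrays, and Dbh, which makes noradrenaline, at 1.58 and 1.63. Their other probes were at -0.57 and -0.44. Slc6a2, the noradrenaline transporter, was at -1.35 and -0.81. The median of the 6 measured members was -0.03. Over the alternatives it ranged from -0.27 to 0.07, and its sign turned under 5 of them. Slc6a3, the dopamine transporter, had a signal above background in the wild type only, with a bound of at least 2.17-fold lower. Inhibitory transmission had 15 measured genes with a median of -0.30, 1 of them above 0 and none past 2-fold. The lowest were Slc6a5, the glycine transporter of glycine neurons, at 1.38 and 1.92, Gad2 at 2.49 and 3.02, and Slc32a1, the vesicle transporter for both transmitters, at 6.01 and 6.47. The other probes of Gad2 ranged from -1.28 to 0.34, so its value rests on the probe read.

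Cerebellar neurons had medians near 0. All 13 Purkinje cell genes lay between -0.12 and 0.22, with a median of -0.02. Calb1, a calcium buffer, was at 5.47 and 5.29 and Pvalb, another, at 6.92 and 6.96. The 14 granule and unipolar brush cell genes had a median of -0.01. Within it Zic2, a factor of granule cell precursors, differed by 0.70 and Grm4, a glutamate receptor, by -0.34. In RNA from whole tissue, fewer cells of a type and less RNA per cell cannot be told apart. No member of the cerebellar lists or the Hox genes was past 2-fold. Of 15 measured Hox genes 3 were above 0, Hoxb7, Hoxa7 and Hoxa4. Hoxd8 was above background on the transgenic array alone, at least 1.51-fold higher. In wild-type spinal cord Hoxb7 stood at 3.01, Hoxa7 at 3.79, Hoxd8 at 3.08 and Hoxa4 at -2.45. Hoxc8 and Hoxc9, at 2.06 and 1.26 there, were above background on neither brainstem/cerebellum array. Hoxb8, at 0.69 there, differed by -0.08 here. The part of the dissected piece's make-up in these results was not tested. Whether the brainstem lists differ from the cerebellar ones was not tested.

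**Figure D2:**
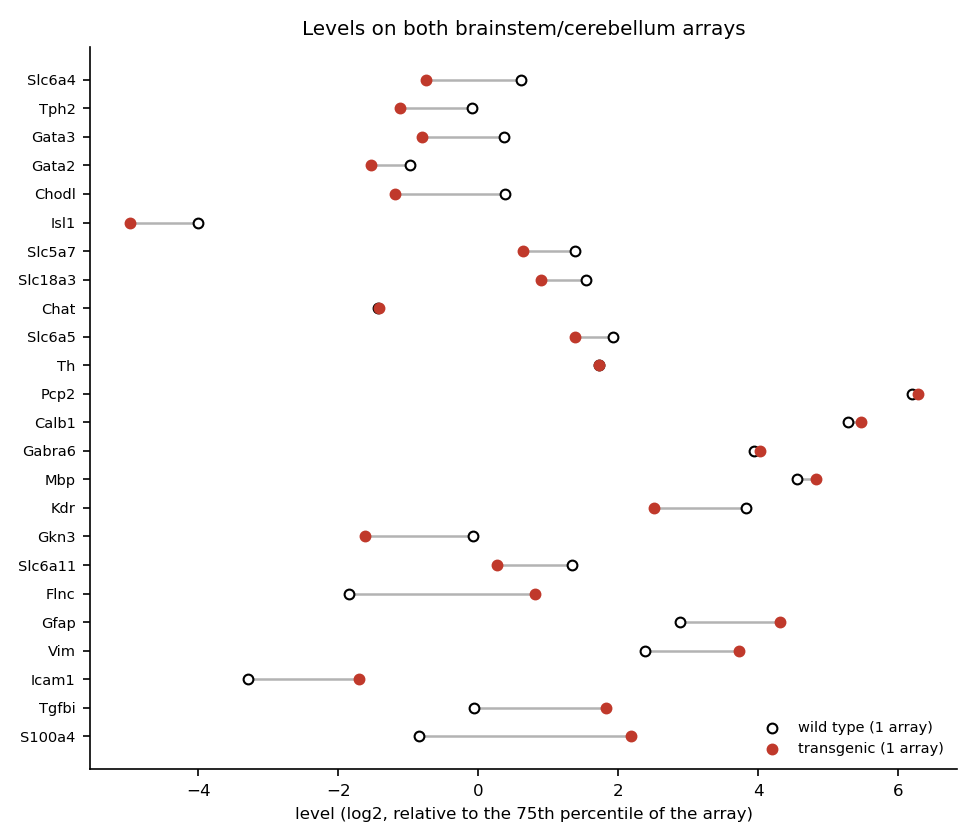
Levels of single genes (log2 relative to the 75th percentile of the array, horizontal axis) on the wild-type array (open circles) and the transgenic array (red), 1 array each. Slc6a4, Tph2, Gata3, Chodl, Kdr, Gkn3 and Slc6a11 are lower on the transgenic array, the cerebellar genes Pcp2, Calb1 and Gabra6 lie close together, and Flnc, Gfap, Vim, Icam1, Tgfbi and S100a4 are higher.

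Of the general neuronal lists, those of the axon, granins, release and channels had medians below that of all genes. Axonal cytoskeleton genes had a median of -0.23 over 14 genes, 1 of them above 0. The neurofilament light chain Nefl was at 5.89 and 6.38, the heavy chain Nefh at 5.31 and 5.74 and the medium chain Nefm at 5.14 and 5.46. Granins and prohormone processing genes, which make up and mature dense-core vesicles, had a median of -0.29 over 11 genes, with Chga at 4.84 and 5.29. Presynaptic release genes had a median of -0.19 over 18 and voltage-gated channels -0.17 over 17. After a smooth fit of the difference on signal was subtracted, an alternative added after seeing the data, the axonal and granin medians were -0.14 and -0.17 and the presynaptic and channel medians -0.08 and -0.06. No gene of these 4 lists was past 2-fold. Glutamate receptors had a median of 0.06 over 15 genes and the node of Ranvier, where the myelin sheath is interrupted, one of 0.02 over 12, with no member past 2-fold in either.

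Neuropeptides lay on both sides of 0. Of 18 measured, Trh, the thyrotropin-releasing hormone gene, was the 1 past 2-fold higher, at 1.31 on the transgenic array and -0.20 on the wild-type one, and Calcb, a calcitonin gene-related peptide, the 1 past 2-fold lower, at -3.44 and -2.35. Tac1, the substance P precursor, was at 2.15 and 2.63. Among activity-regulated genes, which neurons switch on when they fire, Arc was 2.01-fold lower, at 0.75 and 1.76, Nptx2 was at -3.96 and -2.99, and Npas4 differed by -0.20. Nr4a1 of the same list differed by 0.81. The early response list, which other cells share, had Atf3, a factor induced by stress and axon injury, at -0.77 and -2.65, or 3.70-fold higher, and Egr2 at -2.26 and -3.31, or 2.08-fold higher. Fos was at 1.44 and 0.96 and Jun at 2.43 and 2.45. Junb differed by 0.92 at its brightest probe and by -0.14 at another. None of 13 genes linked to parkinsonism was past 2-fold. As the labels name no transgene, none of these values checks the genotype.

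Among glial lists the largest values belonged to intermediate filaments and the proteins attached to them, with 4 of 8 members past 2-fold higher and a median of 0.96. Flnc, an actin cross-linker, stood at 0.81 and -1.85, or 6.30-fold higher. Vim, vimentin, was at 3.73 and 2.39, and Cd44, a hyaluronan receptor, at -1.16 and -2.52, with another probe at 1.94. Gfap, the filament of astrocytes, was at 4.31 and 2.88, and at 0.81 at its other probe. Nes, nestin, differed by 0.58, Synm by 0.12 and Plec by -0.03.

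Genes of the transport work of astrocytes had a median of -0.06 over 16 members. The glutamate transporter Slc1a2 was at 2.13 and 2.21 and the water channel Aqp4 at 3.54 and 3.59. Slc6a11, a GABA transporter of astrocytes, was at 0.27 and 1.33, or 2.09-fold lower. Slc7a10, an amino acid transporter, differed by -0.74, the mitochondrial glutamate carrier Slc25a18 by -0.46 at both probes and the potassium channel Kcnj10 by -0.38. Gja1, the main gap junction gene of astrocytes, had 1.95 at the probe that stands for it, but its other measured probes ranged from -0.28 to 0.50, so the gene has no settled direction here. Bergmann glia, the astrocytes of the cerebellar cortex, had a median of 0.16 over 8 genes with none past 2-fold, and under scaling on the median of each array that median turned to -0.01.

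Oligodendrocyte genes differed little. Of 16 myelin protein genes none was past 2-fold, and their median was 0.05. Mag was at 4.03 and 3.99, Mog at 0.80 and 0.86 and Mal at 5.20 and 5.14. The highest were Cldn11, the tight junction protein of myelin, at 4.33 and 3.68, Trf, the iron carrier transferrin, at 6.18 and 5.55 and Ermn at 4.78 and 4.36. Myelin lipid synthesis had a median of -0.10 over 12 genes. Precursors and new oligodendrocytes had a median of 0.01 over 16, with Cspg4, the NG2 proteoglycan, at -0.52 and -1.31, Itpr2 at 2.09 and 1.51 and Olig1 at 3.05 and 3.38.

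**Figure D3:**
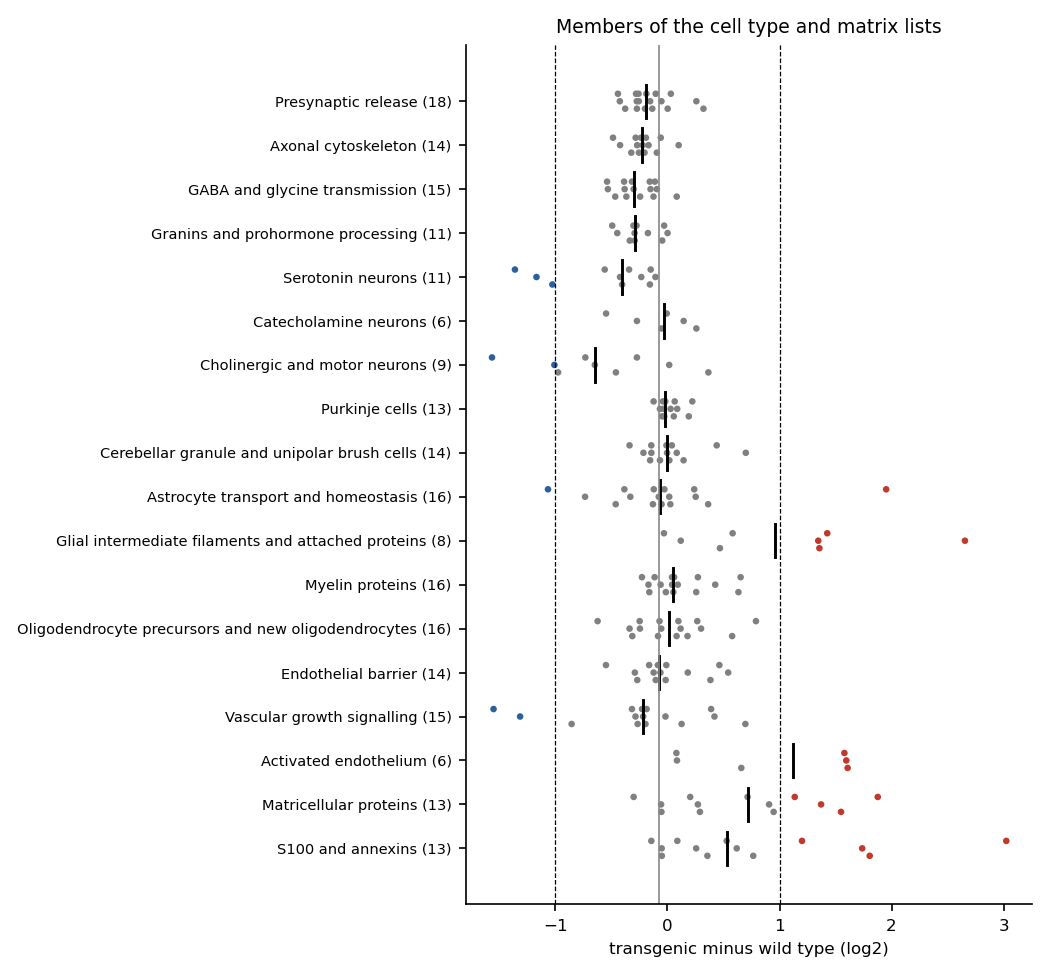
Difference (transgenic minus wild type, log2, horizontal axis) of every measured member of 18 cell type and matrix lists, with the number of members in brackets. Black bars are list medians, the grey line the median of all genes, dashed lines 2-fold; red and blue points are members past it. Serotonin and motor neuron members lie left, Purkinje members near 0, and filament, activated endothelium and matricellular members right.

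Kdr, the main receptor for vascular endothelial growth factor, stood at 2.51 on the transgenic array and 3.82 on the wild-type one, or 2.49-fold lower (probe at chromosome 5, 76329309 to 76329368, mm9). Of 2494 genes with a mean level above 3, it and Pisd-ps3 were the 2 past 2-fold lower. Gkn3, a gene of arterial endothelium, was at -1.62 and -0.07, or 2.93-fold lower. Apln, the ligand apelin, was at 0.87 and 1.73. Its receptor gene Aplnr was above background on the transgenic array alone, at least 4.50-fold higher. The list had 4 members above 0, among them Esm1 at 0.70, Adm, adrenomedullin, at 0.42 and Angpt1 at 0.39. Other receptors were closer together: Flt1 differed by -0.29, Tek by -0.23 and Tie1 by -0.19, and Vegfa, the growth factor, by -0.32. The other probes of Flt1 differed by 0.11 to 0.45 and those of Vegfa by -0.27 to 0.17, so neither gene has a settled direction here. The median of this vascular growth list was -0.22 over 15 genes. Genes of activated endothelium had 3 of 6 members past 2-fold higher and a median of 1.12. These were Ch25h, a cholesterol hydroxylase, at -0.66 and -2.27, Icam1, a leukocyte adhesion molecule, at -1.70 and -3.30, and Lrg1 at -1.01 and -2.59. Vwf, von Willebrand factor, differed by 0.66 and Vcam1 by 0.08, while the selectins Selp and Sele were not well above background on either array. Without the filter on dim probes, which adds 3 genes, the median of this list was 0.085. The 14 barrier genes had a median of -0.07 and none past 2-fold, with the tight junction gene Cldn5 at 1.53 and 1.06 and the glucose transporter Slc2a1 at 3.80 and 3.86. Of pericyte and smooth muscle genes, Anpep, an aminopeptidase, was 2.75-fold higher, and Rgs5 differed by -0.62. Myh11 was at -2.10 at its brightest probe and 0.39 at another.

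Of 13 matricellular genes, which act on cells through the matrix rather than build the scaffold, 4 were past 2-fold higher, with a median of 0.72. Tgfbi stood at 1.82 and -0.05, or 3.67-fold higher, Ccn1 at -0.94 and -2.49, Ecm1 at 1.28 and -0.09 and Postn, periostin, at -1.71 and -2.84. Spp1, osteopontin, was at 4.61 and 3.66. The 3 members below 0 were Tnc, tenascin C, at -0.30, Thbs4 at -0.06 and Sparcl1 at -0.05. Ccn5 was above background on the transgenic array alone, at least 17.2-fold higher. Basement membrane genes had a median of -0.07 over 12 and no member past 2-fold, and perineuronal net genes -0.27 over 9, with the link protein Hapln1 at -0.55 and -0.04. Of fibroblast genes Col3a1 was 2.59-fold higher and Col1a1 differed by 0.34.

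Proteases and their inhibitors held large single values. Serpina3n, a protease inhibitor of reactive astrocytes, stood at 2.72 and -0.94, or 12.6-fold higher. Serpina3m was at least 14.1-fold higher as a bound. In contrast Serpinb1a, an inhibitor of neutrophil proteases, was at 0.26 and 1.19, and the median of the 10 measured serpins was -0.20. Of 11 metalloproteinases and inhibitors, with a median of -0.02 whose sign turned under 8 alternatives, Mmp19 was 3.93-fold and Mmp2 2.45-fold higher, and Mmp9 2.01-fold lower. Mmp3 was at least 4.64-fold higher as a bound. Of the calcium-binding S100 and annexin genes 4 of 13 were past 2-fold higher. S100a4 was at 2.18 and -0.84, or 8.13-fold higher, S100a6 at 4.09 and 2.35 and Anxa3 at 2.05 and 0.85, and S100a11 differed by 1.80. S100b, the astrocyte member, was at 6.09 and 6.23. Choroid plexus genes had a median of -0.10 and ependymal genes one of -0.20, with no member past 2-fold in either.

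Sterol synthesis was the metabolic list that lay furthest from 0. Neurons and glia make their own cholesterol, and oligodendrocytes use much of it for myelin. None of its 21 measured genes was above 0 and none was past 2-fold, with a median of -0.41 and a range from -0.81 to -0.15. Sc5d, a late enzyme of the pathway, stood at 1.09 on the transgenic array and 1.90 on the wild-type one, and at -0.47 at its other probe. Early enzymes had like values: Hmgcs1 was at 4.10 and 4.58 and Idi1 at 1.58 and 2.11. In the branch after squalene, Sqle was at 2.31 and 2.77 and Dhcr7 at -0.95 and -0.37, and Cyp51 differed by -0.51. Srebf2, the transcription factor of the pathway, was at 0.81 and 1.29. Nsdhl differed by -0.66 at its brightest probe and by 0.43 at another. The list median stayed between -0.58 and -0.34 over all alternatives, and all genes at mean levels from 0 to 2 had a median of -0.09. Fatty acid synthesis had a median of -0.23 over 11 genes, with Elovl5 at 2.49 and 3.12 and Fads2 at 0.29 and -0.08. The other probe of Elovl5 differed by 0.15 and those of Fads2 from -0.57 to 0.07, so both values rest on the probe read.

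Lipid efflux and storage had a median of 0.31 over 14 genes, of which Plin4, a lipid droplet coat protein, was the 1 past 2-fold, at 2.82 and 1.02. Apoc1 was at 1.74 and 0.98, Apod at 7.29 and 6.66 and Abca1, the cholesterol exporter, at 1.09 and 0.74, while Apoe was at 7.54 and 7.41. Apoc4 was at least 5.19-fold higher as a bound. Iron genes had 2 of 12 past 2-fold higher: Cp, the ferroxidase ceruloplasmin, at 0.69 and -0.76, with other probes from 0.71 to 1.04, and Slc11a1, a metal transporter of macrophages, at -0.32 and -1.67. Ferritin light chain, Ftl1, was at 6.52 and 5.99 and the heavy chain, Fth1, at 7.30 and 7.22. Glycolysis and oxidative phosphorylation had medians of -0.11 and -0.14, near that of other bright genes. Slc16a3, a lactate exporter, was the highest of the first list, at -0.78 and -1.61, and Cox5a the lowest of the second, at 6.46 and 6.86.

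**Figure D4:**
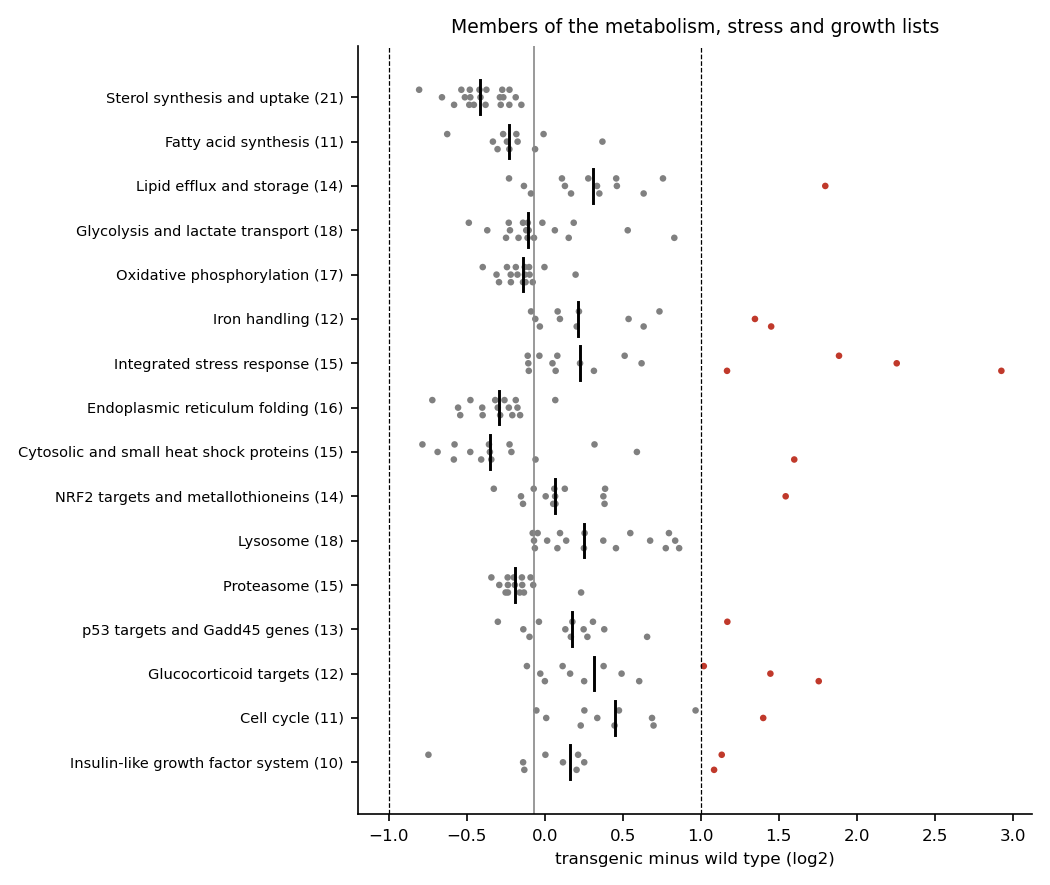
Difference (transgenic minus wild type, log2, horizontal axis) of every measured member of 16 metabolism, stress and growth lists, with the number of members in brackets. Black bars are list medians, the grey line the median of all genes, dashed lines 2-fold. Every sterol synthesis gene lies left of 0, as do most genes of endoplasmic reticulum folding, while the integrated stress response holds 4 members past 2-fold on the right.

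Stress responses split by kind. In the integrated stress response, a programme of translation control that ends in the factor Atf4, 4 of 15 measured genes were past 2-fold higher. Gdf15, a secreted stress signal, stood at -0.69 and -3.61, or 7.61-fold higher (probe at chromosome 8, 73153293 to 73153352, mm9), Nupr1 at 2.56 and 0.30, or 4.78-fold higher at its brightest probe and 0.58 at another, and Trib3 at -1.26 and -2.43. The fourth is Atf3, given above. Atf4 was at 5.55 and 5.66 and Ddit3 at 0.29 and 0.33. The enzymes of amino acid supply in this list were near 0 too, with Asns at -0.11, Psat1 at 0.07 and Phgdh at 0.05. The list median was 0.23.

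Chaperones of the endoplasmic reticulum, which fold secreted proteins and are induced when misfolded protein builds up there, had a median of -0.29 over 16 genes, 1 of them above 0 and none past 2-fold. Xbp1, a transcription factor of that response, stood at 3.99 on the transgenic array and 4.72 on the wild-type one, with other probes from -0.73 to -0.67. Hspa5, the chaperone BiP, was at 4.48 and 5.04, with other probes from -0.72 to -0.61, and Creld2 was at 2.87 and 3.41. Pdia3, a disulfide isomerase, was at 2.19 and 2.67, Herpud1 at 2.39 and 2.79, Calr, calreticulin, at 3.25 and 3.55 and Hsp90b1, also known as GRP94, at 4.79 and 5.04. With the smooth fit on signal subtracted the list median was -0.18.

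Members of this list are known to share a promoter motif, the endoplasmic reticulum stress element. Promoters of 4 members are shown because they hold it, as the 250 bases before the gene start, in RefSeq sequence of build GRCm38.p6, read 5′ to 3′ along the gene, with the motif in capitals on either strand.
Hspa5, chr2:34771840-34772089, plus strand: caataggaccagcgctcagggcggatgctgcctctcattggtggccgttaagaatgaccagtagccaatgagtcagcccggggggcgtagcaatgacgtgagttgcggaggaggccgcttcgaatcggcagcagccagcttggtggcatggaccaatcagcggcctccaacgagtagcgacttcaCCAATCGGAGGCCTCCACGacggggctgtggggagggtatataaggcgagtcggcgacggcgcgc
Hsp90b1, chr10:86705445-86705694, minus strand: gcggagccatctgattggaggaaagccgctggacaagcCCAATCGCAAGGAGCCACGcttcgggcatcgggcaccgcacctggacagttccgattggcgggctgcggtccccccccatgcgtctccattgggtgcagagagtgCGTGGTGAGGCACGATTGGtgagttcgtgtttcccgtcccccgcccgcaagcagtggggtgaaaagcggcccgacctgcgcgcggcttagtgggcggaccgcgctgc
Calr, chr8:84846932-84847181, minus strand: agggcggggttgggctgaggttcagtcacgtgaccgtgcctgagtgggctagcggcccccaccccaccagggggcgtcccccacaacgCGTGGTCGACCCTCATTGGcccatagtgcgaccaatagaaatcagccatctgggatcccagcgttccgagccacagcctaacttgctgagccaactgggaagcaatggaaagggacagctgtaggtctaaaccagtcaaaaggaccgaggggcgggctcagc
Creld2, chr15:88819396-88819645, plus strand: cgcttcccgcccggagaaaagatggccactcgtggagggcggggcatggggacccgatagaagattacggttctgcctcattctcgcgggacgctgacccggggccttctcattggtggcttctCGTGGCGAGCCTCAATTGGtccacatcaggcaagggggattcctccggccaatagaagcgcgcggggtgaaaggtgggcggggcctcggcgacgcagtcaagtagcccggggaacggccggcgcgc

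The motif searched was CCAAT, then 9 bases of any kind, then CCACG, on both strands of that window. Of the 16 measured members 14 had a promoter in the table, and 7 of these 14, or 50%, held the motif, against 0.130% of 27025 genes with a promoter (35 genes). These 7 were Hspa5, Hsp90b1, Dnajc3, Calr, Canx, Pdia6 and Creld2, with a median difference of -0.30. The window of Hsp90b1 holds 2 copies, the others shown 1. Outside the list, 13 measured genes held the motif. Their median difference was -0.01, against -0.08 for 12648 measured genes without it, and none was past 2-fold. The same search was made for a heat shock element, which was TTC, GAA and TTC with 2 bases of any kind between them. It was in 2 of 11 heat shock protein genes with a promoter, Hspe1 and Hspd1, against 0.514% of genes. Matches began at -144 and -139 from the start of Hspd1 and at -89 and -84 from that of Hspe1, on both strands. Whether the 2 genes hold separate elements was not tested, so the share may count an element more than once. The core of the sterol regulatory element, CACCCCAC, was in 1 of 14 sterol genes with a promoter, Hmgcs1, and in 2.98% of genes. A match describes letters only, and no match says only that these letters are not in this window.

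Cytosolic heat shock proteins had a median of -0.35 over 15 genes, with 3 above 0. Those 3 are small heat shock proteins. Hspb1, also known as HSP25 or HSP27, stood at 5.16 and 3.56, or 3.03-fold higher, Hspb6 at 1.18 and 0.59, and Hspb8 differed by 0.32. The co-chaperones and large chaperones were on the other side of 0: Dnajb1 was at 3.63 and 4.41, Hsph1 at 3.82 and 4.51, Dnaja1 at 4.09 and 4.67, Bag3 at 2.04 and 2.52 and Hsp90ab1 at 6.27 and 6.68. Hspa1b was at -0.59 and -0.01 and Hspa1a at 1.73 and 1.78. Among antioxidant genes Hmox1, heme oxygenase, was 2.92-fold higher, at 1.26 and -0.28, while Srxn1 was at 3.87 and 4.20. Lysosomal genes had a median of 0.25 over 18, with none past 2-fold. The enzymes Gusb, Ctsl, Naglu and Ctsd lay between 0.68 and 0.86, whereas Lamp1, a membrane protein, was at 6.05 and 6.04. The other probe of Gusb was at -0.19. Autophagy and proteasome genes had medians of -0.11 and -0.19.

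Hormone and growth lists held few members past 2-fold. Of 12 glucocorticoid targets 3 were: Sult1a1 at 2.13 and 0.38, Cebpd at 2.97 and 1.53 and Fkbp5 at 1.51 and 0.49. Tsc22d3, also known as GILZ, was at 3.86 and 3.89 and Sgk1 at 4.78 and 4.29. Cdkn1a, the cell cycle inhibitor p21, was at 1.77 and 0.60, the 1 of 13 p53 targets and Gadd45 genes past 2-fold. Cell cycle genes had 10 of 11 measured members above 0 and a median of 0.45. Rrm2, which supplies nucleotides for replication, was at -0.98 and -2.38. Mki67 and Top2a, which dividing cells express, were above background on the transgenic array alone, at least 8.79-fold and 6.90-fold higher. Pcna was at 3.05 and 3.04. In the insulin-like growth factor system Igfbp3 was at 1.68 and 0.55, Igfbp2 at 2.43 and 1.34 and Igfbp4 at -4.08 and -3.34. Igf1, which is not in that list and was chosen after its values were seen, stood at 1.15 and -1.33 at its brightest probe. That is a difference of 2.48, while another probe of Igf1 differed by -0.14. Osmr, the oncostatin M receptor, was 2.44-fold higher, and Socs3, the feedback inhibitor of that signalling, stood at 1.21 and -1.80, or 8.07-fold higher. Tgfb1 differed by 0.85, Notch1 by 0.83 and its ligand Dll1 by -0.73. Of the thyroid hormone genes Crym was at 1.27 and 0.19 and Dio2, which activates the hormone in astrocytes, at 1.53 and 2.25. Wnt, MAPK feedback, clock and hypoxia lists had medians between -0.07 and 0.02 with no member past 2-fold. Ribosomal protein genes had a median of 0.02.

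Markers of cells that could enter the tissue were read as well. Border and monocyte-derived macrophages had 4 of 10 measured genes past 2-fold higher: Ms4a7 at 0.78 and -2.46, Chil3 at -1.84 and -4.51, Lyve1 at -3.64 and -5.04 and F13a1 at -0.65 and -1.72. The monocyte receptor Ccr2 was not well above background on either array, Pf4 differed by -0.48 and Cd209f by -0.79. Of neutrophil genes 4 of 10 were measured on both arrays, none above 0, with S100a9 at -3.27 and -2.31. Ly6g was above background on the transgenic array alone, at least 1.81-fold higher as a bound, and 5 were above background on neither. T cell genes had a median of -0.01 over 5, with Cd3e at -2.56 and -2.55. Of 7 B cell genes with a probe 1 was measured on both arrays. Jchain and Cd79b were above background on the transgenic array alone, at least 2.76-fold and 1.49-fold higher, and 4 were above it on neither. The erythroid genes, which read blood left in the tissue, had a median of -0.20 over 5, with Hba-a1 at 6.83 and 7.03. Schwann cell genes had a median of 0.08 over 7. Their part in the results was not tested.

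Outside the lists, genes were ranked if they lay above the median of an array and no other measured probe of theirs went against them. The 30 highest of these ranged from 2.65 to 5.76. Many are immune genes, led by Lcn2 at 1.81 and -3.95. Others are Sprr1a, a small proline-rich protein induced in injured neurons, at -1.21 and -4.68, or 11.1-fold higher, Apoc2, a lipoprotein cofactor, at -0.62 and -3.79, Folr2, a folate receptor of macrophages, at -1.63 and -4.46, the Fc receptor genes Fcgr4, at 3.96, and Fcgr2b, at 2.98 and 2.94 in its 2 probes, and Cd72 at 3.84. The 20 lowest by the same rule ranged from -2.71 to -1.14, and most are dim on both arrays. They include Tgm4, a transglutaminase, at -4.79 and -2.29, Wfdc18 at -4.18 and -1.94, Wnk3, a kinase of chloride transport, at -5.07 and -3.09, Marco, a scavenger receptor, at -4.88 and -3.58 and Pkd2l1, an ion channel of cells that contact the cerebrospinal fluid, at -4.41 and -3.25. Lhx4, a factor of hindbrain and spinal interneurons, had -1.21 and -1.03 at its 2 probes, and A330076C08Rik had -1.38 and -0.58. The remaining genes of these 20 had no other measured probe. The ranking admitted a gene only if any other measured probe differed by at least 0.5 the same way. The like values at second probes, including that of Fcgr2b, were thus required by the rule.

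Probes of 1 gene did not always give the same answer. Of the higher genes 93 had another probe above background on both arrays, and in 65 of them, or 69.9%, all other probes differed by at least 0.5 the same way. Of 9 such lower genes this held for 3, or 33.3%.

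Among bright genes few were past 2-fold. Of 2494 genes with a mean level above 3, 10 were higher, or 0.401%, and the 2 at the top of them are in none of the lists and were chosen after their values were seen. Nmu, the gene of the peptide neuromedin U, stood at 4.93 on the transgenic array and 2.56 on the wild-type one. Prnp, the prion protein gene, stood at 7.79 and 5.75 at one probe (chromosome 2, 131763817 to 131763876, mm9). Its other probe, at 131744903 to 131744962, was at -0.42 and -0.18. In spinal cord the same probes gave 8.03 and 5.75 for the first and -0.04 and -0.44 for the second. Klk6, a secreted protease of oligodendrocytes, and Klk8, a related one, were also chosen after their values were seen. Klk6 was at 2.88 and 0.24 and Klk8 at -0.54 and -2.53. H19, an imprinted RNA, was at -2.12 and -3.82.

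The spinal cord arrays of the same genotypes, which share no array with those above, were read side by side. There the wild-type array lies on another slide than the transgenic one, so slide and genotype cannot be told apart, and the overlap is a description. Among 16487 genes above background on all 4 arrays, 431 were at least 2-fold higher in brainstem/cerebellum. Of these 356 were also 2-fold higher in spinal cord, which is 82.6% of them and 28.6% of the 1244 higher there. Of 44 lower genes 23 were lower in spinal cord too, or 52.3% of them and 2.15% of the 1070 lower there. In spinal cord 7.54% of these 16487 genes were higher and 6.49% lower, and of all genes measured there 8.47% and 6.42%. Another 11 higher genes were 2-fold lower in spinal cord and 1 lower gene was higher there. Kdr differed by -1.84 in spinal cord, Gkn3 by -1.94, Chodl by -2.04 and Slc6a11 by -2.11, on the same side of 0 as in brainstem/cerebellum. Trh differed by -0.21 there, and Gja1 by -1.81 at the probe that gave 1.95 here. The folding chaperones Hspa5 and Creld2 differed by 0.01 and 0.08 in spinal cord and Pdia3 by 0.76. Sterol synthesis had a median of -0.73 there over 21 genes and endoplasmic reticulum folding one of 0.05 over 16. Whether the tissues differ was not tested.

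**Figure D5:**
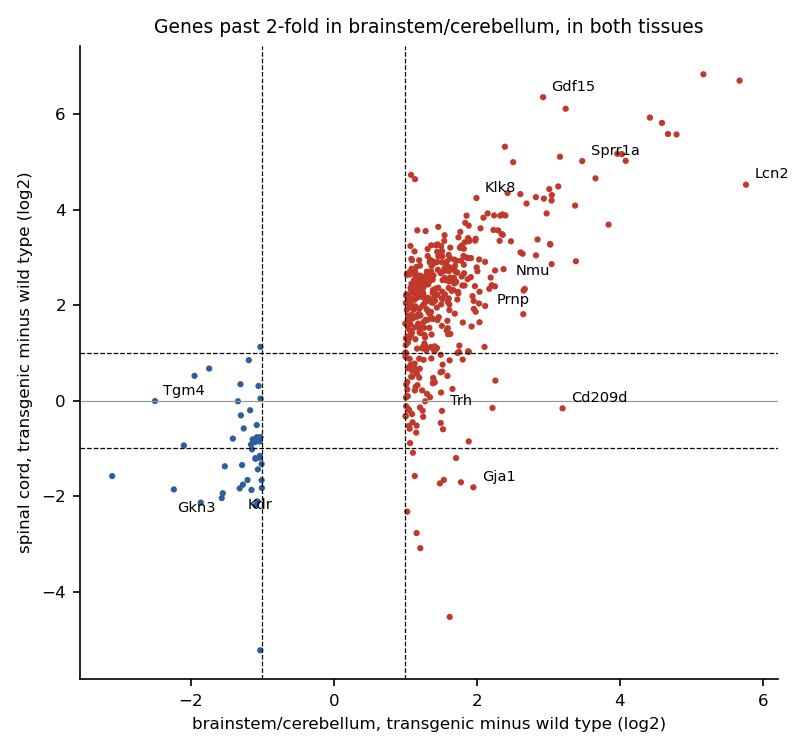
Difference (transgenic minus wild type, log2) in spinal cord (vertical axis) against that in brainstem/cerebellum (horizontal axis) for the genes past 2-fold in brainstem/cerebellum and above background on all 4 arrays, 431 higher (red) and 44 lower (blue). Dashed lines mark 2-fold; 356 red and 23 blue points are past it the same way in spinal cord, where genotype and slide cannot be told apart.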

How the data were processed

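Gene expression was measured by 1-colour Agilent arrays in brainstem/cerebellum of mice aged 24 weeks, 1 array for the transgenic and 1 for the wild-type group, with 2 spinal cord arrays read beside them. Per the labels' protocols, RNA came from TRIzol and a column step, and Cy3 was added with a kit for small inputs. The deposited scanner files hold spot intensities, made with Agilent Feature Extraction 10.7.1.1 per the file headers (9.5.1.1 per the submitters' processing notes), already background-subtracted. The series table holds the authors' processed intensities. The sources used here do not state how these were normalized. They served as an alternative.

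Values were log2 of the processed intensity minus that of the 75th percentile of the array, which was at a signal of 458 on the transgenic array and 436.8 on the wild-type one. Control spots were left out, as were 83 and 134 outlier spots, and spots of a probe were averaged. Of 56597 probes 46307 were named: 32991 by accession through a gene table of GRCm38.p6, 10224 by symbol and 520 by synonym in it, and 2572 by the symbol of the file alone. Of the unnamed, 3956 were above background on both arrays, 69 of them 2-fold higher and 9 lower. Coordinates are those of the files (mm9), except for promoters. Of several probes for a gene, the brightest by its mean on all 4 arrays was taken. Counts past 2-fold cover genes whose probe was well above background in both groups. For a gene above background on 1 array, the bound set the bright value against either the dim probe or the lowest signal well above background, whichever was higher. The counting step was tested on simulated data with known changes set beyond the threshold. The noise in them was that of repeated spots within an array, without animals or hybridisations. That test covers the counting alone and says nothing on how far the reported differences would recur.

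Named genes are, for each list, its first 2 members and up to 5 with the largest difference. Outside the lists they are the 30 highest and 20 lowest genes above the median of an array. Any other measured probes of these had to differ by at least 0.5 in the same direction. The 10 largest bounds each way were taken without these conditions, from genes with no probe above background on both arrays. Other genes were named after their values were seen. Some members of the lists are counted but not reported here by name. Lists, rules and named genes were chosen with earlier results of these data known. The 3 list entries Crabp2, Hbb-bs and Ighm had no probe. Python 3.11.15, R 4.3.3 and limma 3.58.1 were used. Alternatives covered scaling, background correction, filters, probes per gene and thresholds.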

Additional observations from a re-analysis of the deposited data

How the results depend on the processing

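No paired analysis was possible because each group is 1 array. With normexp background correction at an added offset of 50, followed by quantile normalization, 189 genes were higher and 13 lower. These settings were changed together. An offset of that size draws the differences of dim probes towards 0. The median signal was 35.76 on the transgenic array and 30.41 on the wild-type one. Without a filter on dim probes the counts were 1550 and 728, with 68% of calls on the higher side against 89.4% in the values reported. At 1.5-fold they were 1052 and 406 (72.2% higher), and at 3-fold 158 and 10. Of 7203 genes with 2 or more measured probes, 41 were higher and 1 lower at all of them, a stricter demand on fewer genes. The number of lower genes also moved with scaling: it was 103 when arrays were scaled on their medians, 86 with quantile normalization and 85 in the authors' values. Scaling on the spike-in control probes moved the counts the other way, to 497 higher and 40 lower. Under median scaling 325 genes were higher. All 448 higher and 53 lower genes kept their sign under the 7 alternatives in which single genes were followed, and 180 and 13 of them were still past 2-fold with normexp and quantile normalization. Of 27 lists with a median at least 0.2 from 0, all 27 kept its sign in every alternative run, though some alternatives could not have turned it. Of all 73 lists 48 kept the sign of their median throughout. The others include Purkinje cells, granule cells, catecholamine neurons, astrocyte transport and metalloproteinases, whose median ranged from -0.18 to 0.54. None of the 108 named genes past 2-fold turned sign. These counts of kept signs were partly fixed beforehand. Rescaling an array adds 1 constant to every difference, and with median scaling the all-gene value was -0.24 instead of -0.07. A step of that size cannot turn a list median 0.2 or more from 0, nor a gene past 2-fold. The 1.5-fold and 3-fold thresholds left the differences as they were. For such settings a kept sign carries no information. For the dimmest probes, at levels under -3, the technical SD of 0.31 rests on 2 pairs of a probe and an array.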
